A study of Homo sapiens with 6 samples.

Results

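The genes of the small heat shock protein family were described in RNA sequencing libraries of cells labelled LNCaP, an established line of androgen-responsive human prostate cancer cells. The 8 members were HSPB1, HSPB2, HSPB3, CRYAB, HSPB6, HSPB7, HSPB8 and HSPB11, found by symbol among the 20263 genes of the table. HSPB11 is listed there under its current symbol, IFT25. The members had been picked because several of them rose with overexpression in these same libraries, so that comparison is given for them as a description and supports nothing. The labels give 3 libraries of cells with an empty vector and 3 of cells with a LINC01518 overexpression vector, both from total RNA. The series description names MEG3, a different long non-coding RNA, as the insert; group names here follow the samples, and the level of either RNA was not analysed here. Nothing in the labels states that replicates were grown as separate cultures, so a p-value covers only library-to-library spread, possibly technical. Libraries held 38161544 to 42553688 counts, so that an observed 0 is compatible with up to 3 counts, or 0.0703 to 0.0794 CPM (counts scaled to library size by TMM), counting error alone being considered. Of 11 luminal prostate markers, KLK2, KLK3, TMPRSS2 and FOLH1 had 0 counts in all 6 libraries, which goes against the label, whereas KRT8 and KRT18 were abundant.

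Small heat shock proteins are chaperones that work without ATP. They assemble into oligomers through a shared alpha-crystallin domain, bind proteins that begin to unfold, and hold them until the HSP70 system refolds them or passes them to degradation. HSPB1, CRYAB and HSPB8 are made in many tissues, HSPB2, HSPB3, HSPB6 and HSPB7 mainly in muscle and heart. HSPB11 stands apart as a subunit of the intraflagellar transport complex of cilia. Genes of the family that respond to heat do so through heat shock factors, which bind GAA repeats in alternating orientation.

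Promoter sequences are shown for HSPB1, HSPB7 and HSPB8, the members with a window whose libraries lay higher with overexpression, and for HSPB6, whose libraries did not separate. Each is the 250 bases before the RefSeq start site (build GRCh38.p14), 5′ to 3′ on the gene's strand. Capitals mark the core of a paired heat shock repeat, GAANNTTC or TTCNNGAA, each searched on both strands; each form is its own reverse complement, and the 2 forms may overlap.
HSPB1 (chr7:76302423-76302672, plus strand): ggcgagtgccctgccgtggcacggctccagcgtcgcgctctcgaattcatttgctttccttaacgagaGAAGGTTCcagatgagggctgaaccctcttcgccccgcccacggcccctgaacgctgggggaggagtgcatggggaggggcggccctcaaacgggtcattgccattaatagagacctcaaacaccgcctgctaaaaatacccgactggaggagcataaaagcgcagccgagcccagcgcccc
HSPB7 (chr1:16018044-16018293, minus strand): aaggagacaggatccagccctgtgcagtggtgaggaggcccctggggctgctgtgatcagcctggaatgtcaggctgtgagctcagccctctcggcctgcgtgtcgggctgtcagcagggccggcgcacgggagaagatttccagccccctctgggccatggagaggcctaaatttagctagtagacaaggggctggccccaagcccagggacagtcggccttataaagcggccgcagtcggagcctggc
HSPB8 (chr12:119178681-119178930, plus strand): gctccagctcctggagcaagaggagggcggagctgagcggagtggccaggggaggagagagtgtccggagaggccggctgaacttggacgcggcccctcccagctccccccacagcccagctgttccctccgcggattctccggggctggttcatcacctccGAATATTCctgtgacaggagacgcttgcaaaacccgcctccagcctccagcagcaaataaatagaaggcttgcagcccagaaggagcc
HSPB8 at the start site (chr12:119178924-119178953, plus strand): aggagccagaaGAAGTTTCtaggcgcgcgt
HSPB6 (chr19:35757030-35757279, minus strand): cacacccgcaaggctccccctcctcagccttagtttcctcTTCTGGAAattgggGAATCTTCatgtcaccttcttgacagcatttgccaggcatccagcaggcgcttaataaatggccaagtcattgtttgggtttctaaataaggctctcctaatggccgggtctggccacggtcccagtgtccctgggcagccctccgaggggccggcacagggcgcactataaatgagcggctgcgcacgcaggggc
GENCODE 29 gives each of the 4 genes a transcript that begins further upstream, so positions hold for the RefSeq start alone. RefSeq windows of 300 bases, from 250 before to 50 after the start, were matched for 6 of the 8 members, all but CRYAB and HSPB2. A core was present for 4 of the 6. HSPB1 had GAAGGTTC at position -182 from the start site, and HSPB3 had TTCTTGAA at -242. HSPB8 had GAATATTC at -88 and GAAGTTTC at 5 bases into the transcript, and HSPB6 had TTCTGGAA at -210 and GAATCTTC at -196. The windows of HSPB7 and HSPB11 held neither form. Over all 35116 windows of this length, 13.5% held at least 1 of the 2 forms. The TATA box letters TATAAA, searched on both strands, were in the windows of HSPB7, HSPB6 and HSPB3 and in 11.5% of all windows. A match is a run of letters and not a measured binding site. HSPB6 had 2 cores and its groups overlapped, but at 13 to 29 counts per library (SE 0.393 on the log2 scale). HSPB7 had 0 cores and its groups lay apart. HSPB1 and HSPB8 had cores and groups that lay apart, and HSPB11 had neither form and groups that overlapped. A link between cores and differences in level was not tested.

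Levels were compared between genes on the deposited TPM (transcript abundance corrected for length and library size). HSPB1 was by far the most abundant member, at 744.7 ± 31.2 TPM (SD, n = 3) with empty vector. HSPB7 followed at 88.8 ± 3.11 TPM and HSPB11 at 87.4 ± 12.6 TPM, and the libraries of these neighbours overlapped. HSPB8 stood at 20.7 ± 0.901 TPM, CRYAB at 9.02 ± 1.15 TPM and HSPB6 at 0.878 ± 0.0566 TPM. HSPB2 was close to the limit of detection at 0.0730 ± 0.0027 TPM, and HSPB3 was listed at 0 in all 6 libraries. Apart from HSPB7 and HSPB11, no neighbours in this order overlapped, and the order was the same with overexpression. There HSPB7 (107 to 114.3 TPM) lay above HSPB11 (76.7 to 84.2 TPM) without overlap. The ratio of HSPB7 to HSPB11 was 0.852, 1.12 and 1.12 in the empty vector libraries and 1.39, 1.38 and 1.36 with overexpression.

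**Figure D1:**
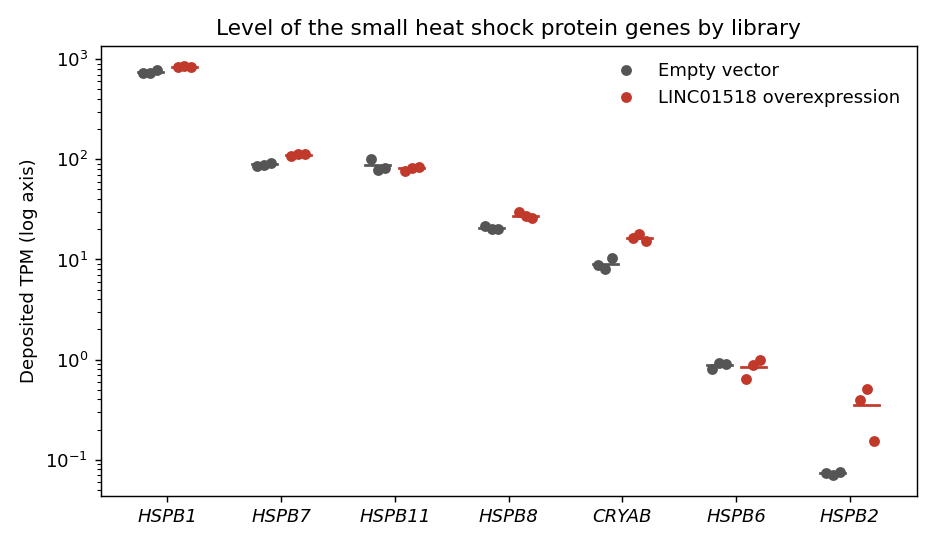
Deposited TPM (log axis) of the members in each library, with empty vector in grey and LINC01518 overexpression in red; points are libraries and bars are means of 3. HSPB1 lies near 745 TPM with empty vector and HSPB2 near 0.0730; HSPB3 is at 0 in all 6 libraries and is left out.

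Summed over the 8 members, the TPM were 951.9, 916.1 and 986.9 with empty vector and 1073, 1091 and 1087 with overexpression. HSPB1 made up 78.3% ± 1.16 (SD, n = 3) of that sum with empty vector and 78.0% ± 0.393 with overexpression. The mean TPM of HSPB1 was 101 higher with overexpression, that of HSPB7 22.8, that of CRYAB 7.54 and that of HSPB8 6.73 higher. Most of the increase in the family's summed level was HSPB1, the member with the smallest relative change of these 4.

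HSPB1, also called HSP27, is a chaperone of the cytosol that also binds actin and is phosphorylated in stress (chromosome 7, 76302544 to 76304295, plus strand, GRCh38). It had 343.9, 346.6 and 386 CPM in the empty vector libraries and 415.8, 416.1 and 419.3 CPM in the overexpression libraries. The groups did not overlap, and the empty vector libraries spread more widely than those with overexpression. The log2 fold change, overexpression minus empty vector, was 0.22 (SE 0.0533), a 1.16-fold difference. Empty vector replicate 3 lay nearest the overexpression libraries, and without it the log2 fold change was 0.27. On TPM the libraries also lay apart, at 721.7 to 780.2 with empty vector and 842.2 to 848.7 with overexpression.

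CRYAB, alpha-B crystallin, is a chaperone of the lens and of muscle that keeps intermediate filaments such as desmin from aggregating (chromosome 11, 111908565 to 111923722, minus strand). It had the largest relative difference of the tested members. Its level was 4.25, 3.94 and 5.39 CPM with empty vector (168 to 209 counts), against 8.48, 9.15 and 7.86 CPM with overexpression (297 to 360 counts). The lowest overexpression library was above the highest empty vector library. The log2 fold change was 0.91 (SE 0.14), or 1.88-fold. CRYAB stayed a minor part of the family, at 1.21% ± 0.104 of the TPM of HSPB1 with empty vector and 1.96% ± 0.157 with overexpression (SD, n = 3 each).

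HSPB2 lies on chromosome 11 (111912242 to 111914093, plus strand), inside the annotated span of CRYAB, which runs on the opposite strand, and encodes a muscle protein that binds the myotonic dystrophy kinase. It had 2, 2 and 2 counts with empty vector and 12, 14 and 4 with overexpression, so all empty vector libraries were at or under the limit that a count of 0 allows. Over the groups, 30 counts stood against 6, a ratio of 5.14 after scaling, which is a description because the members were picked on this contrast. Of the 1335 exon bases of HSPB2 in GENCODE 29, 626 lie within exons of CRYAB on the opposite strand. On its own strand, 719 lie within exons of the readthrough gene HSPB2-C11orf52, and how reads over those bases were assigned is not given in the sources used here. The strand setting of the counting is not given in the sources used here, so reads of HSPB2 and CRYAB cannot be told apart over those bases. The counts of HSPB2 were 0.957% to 1.19% of those of CRYAB with empty vector and 1.35% to 3.89% with overexpression. HSPB2 did not pass the filter on low counts and was not tested. HSPB3 (chromosome 5, 54455601 to 54456384), which encodes the partner of HSPB2 in a muscle complex, had 0 counts in all 6 libraries, and a change in it was not detectable at this depth.

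HSPB7, a cardiac and skeletal muscle chaperone that binds filamin C and limits protein aggregation (chromosome 1, 16014028 to 16019594, minus strand), was well expressed here. It had 90.9, 97.8 and 97.7 CPM in the empty vector libraries and 124.2, 128.7 and 131.5 CPM in the overexpression libraries. The spread within either group was small beside the distance between them. The log2 fold change was 0.42 (SE 0.0504), or 1.34-fold.

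HSPB8, also called HSP22, works with the co-chaperone BAG3 to hand misfolded proteins to autophagy (chromosome 12, 119178642 to 119221131, plus strand). It had 22.6, 21.6 and 22.6 CPM in the empty vector libraries and 33.1, 29.6 and 28.9 CPM in the overexpression libraries. Overexpression replicate 1 was the highest library, and the groups did not overlap. The log2 fold change was 0.46 (SE 0.0738), or 1.37-fold. BAG3 itself was at 40.7 ± 1.46 and 40.6 ± 2.05 CPM (SD, n = 3 each), a log2 fold change of -0.0046 (SE 0.0646). The ratio of HSPB8 to BAG3 counts was 0.55, 0.553 and 0.537 with empty vector and 0.855, 0.736 and 0.676 with overexpression.

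HSPB6, or HSP20, is known for relaxing smooth muscle (chromosome 19, 35754569 to 35758079, minus strand). It had 13, 29 and 22 counts with empty vector and 15, 22 and 28 with overexpression, and the groups overlapped. The log2 fold change was 0.07 (SE 0.393), an SE nearly as large as the log2 fold change of HSPB7. HSPB11 (chromosome 1, 53916574 to 53945929, minus strand) had 44.8, 35 and 38.2 CPM in the empty vector libraries and 35.9, 38 and 38.7 CPM in the overexpression libraries. Its groups overlapped as well, with empty vector replicate 1 the highest of the 6 libraries. The log2 fold change was -0.07 (SE 0.0949), and without that library it was 0.04.

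**Figure D2:**
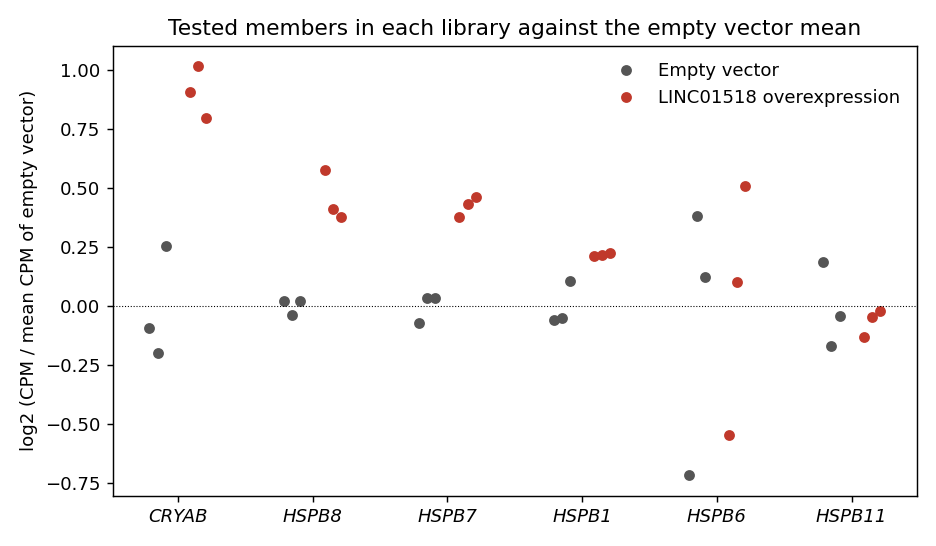
CPM of the 6 tested members in each library as log2 of the ratio to the empty vector mean (empty vector grey, overexpression red; each point is 1 library). CRYAB, HSPB8, HSPB7 and HSPB1 have all red points above all grey points, and HSPB6 and HSPB11 have groups that overlap.

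Of the 8 members, 6 passed the filter on low counts and entered the edgeR fit. The groups lay apart with overexpression higher for 4 of the 6 (15.9% of the 13543 genes tested) and lower for 0 (15.5% of all). CRYAB, HSPB7 and HSPB8 had an edgeR adjusted p under 0.05, 3 of the 6, against 3.57% of all genes tested that were called higher. None was called lower (2.03% of all genes tested). The members were picked on this contrast, so nothing is read from these shares. Their median log2 fold change was 0.32, and that of all genes tested was -0.0035. HSPB7 was called in each of the 17 alternative fits. CRYAB was not called without overexpression replicate 1 or 2, and HSPB8 without overexpression replicate 1 or 2 or empty vector replicate 2. With the replicate number as a block, CRYAB and HSPB8 were not called either, while DESeq2 added HSPB1, as did the fit without empty vector replicate 3. In bulk libraries, more cells with a transcript and more transcript per cell cannot be told apart.

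Partners and regulators of the family, and the other chaperones that heat induces, were read from the same fit. Among 65 tested genes of 6 lists (69 genes), edgeR called 0, where 5.60% of all genes tested were called. At an unadjusted p under 0.05 there were 7 of the 65 (3200 of the 13543 genes over all), and 1 of them passed with DESeq2, while limma-voom called 0 and the TPM fit with limma-trend called 0. A p that misses the threshold does not show that these genes were equal between groups, and the difference from the members was not tested.

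Heat shock factors are the transcription factors that induce chaperones in stress. Their list, which also held HSBP1, had 4 of 5 genes tested and 0 called, with a median log2 fold change of -0.04. HSF1, the main factor of the heat response, was measured at 74.1 ± 8.04 CPM in empty vector libraries and 71.9 ± 9.46 CPM in the others (SD, n = 3 each). HSF2 was at -0.04 (SE 0.101) and HSF4 at -0.04 (SE 0.105) on the log2 scale, and HSF5 had 0 counts in all libraries. HSBP1, a protein that binds HSF1, was at 0.10 (SE 0.047). Its overexpression libraries all lay above its empty vector libraries, as they did for 15.9% of all genes tested.

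The list of chaperones and other genes known to be induced by heat had 27 of 27 genes tested and 0 called in either direction. Its median log2 fold change was -0.02, and the range ran from -0.30 (HSPA1L) to 0.15 (HSPA1A). HSP90AB1 (1455 ± 34.2 to 1415 ± 12.8 CPM) and HSP90AA1 (1136 ± 42.2 to 1137 ± 20.9 CPM), the cytosolic HSP90 genes, were the most abundant. HSPA1A and HSPA1B, near-identical copies of inducible HSP70 between which reads can be divided, went from 447.2 ± 7.72 to 494.5 ± 16.9 CPM and from 426.8 ± 8.71 to 462 ± 14.8 CPM. Their groups did not overlap, but neither was called (edgeR adjusted p = 0.0947 and 0.162). DNAJB1, an HSP40 co-chaperone that responds strongly to heat, had a log2 fold change of 0.02 (SE 0.073).

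Partners of HSPB8 in chaperone-assisted autophagy had 11 of 12 genes tested and 0 called by edgeR, with a median log2 fold change of -0.0046. FLNA, the filamin that this pathway helps to turn over, had 2376 ± 133 and 2715 ± 133 CPM (edgeR adjusted p = 0.101), and DESeq2 called it. HSPA8, the constitutive HSP70, was at -0.02 (SE 0.0623), and STUB1, the ubiquitin ligase CHIP, at 0.15 (SE 0.0539). Of the kinases that phosphorylate HSPB1, or act above those that do, 8 of 8 were tested and 0 called, with a median of 0.02. MAPKAPK2, the main HSPB1 kinase, was at 0.04 (SE 0.0567) and MAPKAPK3 at 0.02 (SE 0.052). The intraflagellar transport genes that encode the partners of HSPB11 had 16 of 16 tested and 0 called, with a median of -0.05. IFT80 was at -0.15 (SE 0.0665) and IFT20 at -0.04 (SE 0.136). IFT27, which binds HSPB11 directly, was at 0.24 (SE 0.118), and IFT74, at 1.16 (SE 0.532), had 8, 2 and 4 counts with empty vector and 11, 10 and 10 with overexpression. IFT74 passed the filter only through the overexpression libraries, so its fold change is given as a description.

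**Figure D3:**
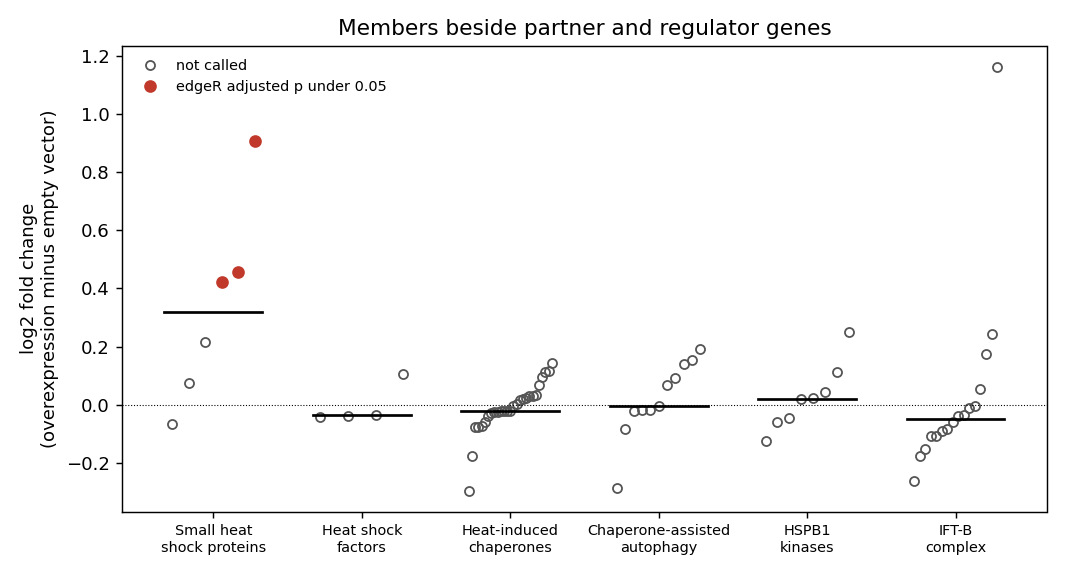
Log2 fold change (overexpression minus empty vector) of the 6 tested members and of each tested gene of 5 lists of regulators and partners; filled red points had an edgeR adjusted p under 0.05 and bars are medians. The 3 red points are CRYAB, HSPB8 and HSPB7, and the members were picked on this contrast; the highest open point, IFT74, has 2 to 11 counts per library and passed the filter only through the overexpression libraries.

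Family genes outside the 8 members had at most 19 counts in any library. HSPB9, a family member of the testis, had 8, 5 and 2 counts with empty vector and 17, 19 and 12 with overexpression. The groups did not overlap, the log2 fold change was 1.69 (SE 0.484), and HSPB9 was not called (edgeR adjusted p = 0.0853). It passed the filter only through the overexpression libraries, so a difference was built into its being tested. CRYAA, the lens alpha-A crystallin, had 0 to 2 counts per library, and ODF1, a sperm tail protein, had 0 in all.

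Since HSPB7 and CRYAB are best known from muscle, muscle markers were read beside them. MYOD1, MYOG and MYF5, factors that define the skeletal muscle lineage, had 0 counts in all 6 libraries, as did CNN1 and TNNI2, 5 of 19 markers in all. The summed level of the 19 was 76 to 81.5 CPM with empty vector and 71.8 to 78.7 CPM with overexpression. Of 10 markers tested, 1 rose, the cardiac actin gene ACTC1, from 1.38 ± 0.217 to 2.99 ± 0.0245 CPM (edgeR adjusted p = 0.014), and 0 were called lower; over all genes tested, 3.57% were called higher and 2.03% lower. ACTC1 was not called without overexpression replicate 3 (edgeR adjusted p = 0.0525). In 2 of the 10 all overexpression libraries lay below all empty vector libraries, as they did for 15.5% of all genes tested. TTN, the gene of the sarcomere protein titin, had 25, 24.7 and 18.6 CPM with empty vector and 16.4, 17.4 and 17.4 CPM with overexpression. Its log2 fold change was -0.42 (SE 0.118), which was not called (edgeR adjusted p = 0.0807). TTN was called lower by DESeq2 (adjusted p = 0.0247) and, by edgeR, without empty vector replicate 3 (adjusted p = 0.0209). TAGLN, the smooth muscle gene of transgelin, had 7.49 ± 0.398 and 6.32 ± 0.368 CPM, a log2 fold change of -0.24 (SE 0.0994), and was not called (edgeR adjusted p = 0.187). CKM, the muscle creatine kinase gene, did not pass the filter on low counts, with 5, 6 and 4 counts with empty vector and 0, 2 and 0 with overexpression. DES, which encodes the desmin that CRYAB protects, had 2.18 ± 0.215 and 2.27 ± 0.0257 CPM.

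The genes on either side of each member, a set chosen by position after the members' values were seen, numbered 15, of which 11 were tested. Of the 11, 1, SRRM4, was called higher and 0 lower, against 3.57% and 2.03% of all genes tested. SRRM4 encodes a splicing factor of neural microexons and lies upstream of HSPB8 on the same strand, with 15.59 kb between the gene ends. Its CPM were 1.34 ± 0.311 with empty vector and 4.38 ± 0.555 with overexpression (SD, n = 3 each), a rise of 1.71 on the log2 scale (SE 0.2, edgeR adjusted p = 0.00655). Overexpression replicate 1 was the highest of its group for HSPB8 (33.1 CPM) and the lowest for SRRM4 (3.76 CPM). Whether these neighbours changed together was not tested. The other 10 flanking genes had log2 fold changes between -0.19 and 0.17. LRRC42, 0.15 kb from HSPB11 on the opposite strand, was the highest of these at 0.17 (SE 0.0596, edgeR adjusted p = 0.136).

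**Figure D4:**
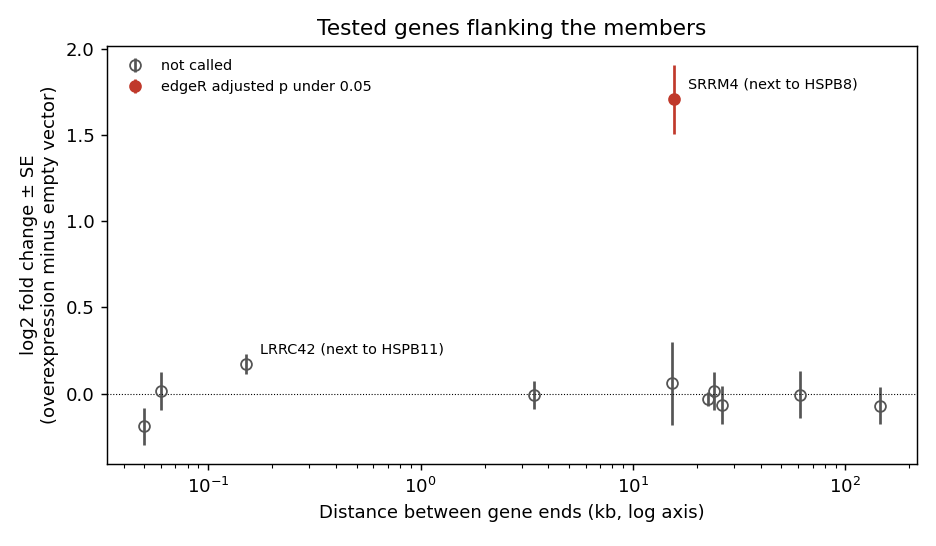
Log2 fold change ± SE (overexpression minus empty vector) of the 11 tested genes that flank the members, against the distance between gene ends (kb, log axis). SRRM4, next to HSPB8, is at 1.71, and the other 10 lie between -0.19 and 0.17.

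Across the 6 libraries, log2 CPM of HSPB1, HSPB7 and HSPB8 moved together (Pearson's r = 0.921 for HSPB1 with HSPB7, 0.875 for HSPB1 with HSPB8 and 0.909 for HSPB7 with HSPB8). The correlations with HSPB11 were -0.32, -0.36 and -0.26. These values describe 6 points that share the group contrast and carry no test. Of 9739 other genes with a mean of at least 10 CPM, those most like HSPB7 were SLC12A7 (r = 0.998), CCDC85C (0.997) and MAPRE2 (0.996). Those most like HSPB8 were SNX25 (0.998), MRPS6 (0.996) and OTX1 (0.994), and those most like HSPB1 were LDOC1 (0.995), TBC1D10B (0.995) and PTPN6 (0.994). Their own differences were mostly smaller than that of the member they resembled, for instance 0.25 on the log2 scale for SLC12A7 against 0.42 for HSPB7. For HSPB11 the most alike were PIAS2 (0.992), SERBP1 (0.990) and POLR2K (0.988).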

How the data were processed

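Total RNA was sequenced from 3 empty vector and 3 LINC01518 overexpression samples. Per the submitters' processing notes, the authors trimmed reads with Trimmomatic 0.36, aligned them to GRCh38 with HISAT2 and counted them with featureCounts of Subread 1.5.1. The deposited counts are whole reads per gene with no normalization. The TPM deposited by the authors were made with a tool not given in the sources used here. All columns were matched to samples by name (0 unmatched). Symbols came from a gene name table (20148 genes) and RefSeq synonyms, positions from GENCODE 29 and promoters from RefSeq.

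Counts were fitted in R 4.3.3 with edgeR 4.0.16: filterByExpr (minimum count 10, minimum total 15; 13543 genes), TMM scaling, and a robust quasi-likelihood F test with group as the only term, adjusted by Benjamini-Hochberg over all genes tested and called under 0.05. The SE is the log2 fold change divided by the square root of F. CPM use TMM-scaled library sizes, and correlations used log2(CPM + 0.5). TPM entered limma 3.58.1 as log2(TPM + 0.1), with genes at 0.5 TPM or more in 3 libraries. DESeq2 1.42.0, limma-voom, other scalings and filters, each library left out and a replicate block were alternatives. Simulated data for 13543 genes were used as a check, with no separate result for each alternative. Among 50 genes given a true ratio of 1.3, only 7 were called, so most changes of that size were missed in the simulation. A ratio of 1.5 gave 29 calls among 50 genes. Larger ratios, of 2 and 4, gave 39 and 47 calls among 50 genes each. Of 13271 unchanged genes, 11 were called. The simulation changed 200 genes, fewer than the 759 called in the data, so these shares may not hold for the data. Libraries of a group differed by more than sampling noise (chi-square of 19.7 to 30.8 per gene).

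The members and lists were chosen with earlier results of these data known. Named genes were the members, all genes of lists of 6 or fewer, the called genes of longer lists or else the 2 most abundant, and the 3 genes most correlated with each member of at least 10 CPM. HSPA1A, HSPA1B, HSPA1L, DNAJB1, BAG3, HSPA8, STUB1, IFT27, IFT74, DES, TTN, TAGLN, CKM and the flanking genes were named after their values were seen. Some results are not reported here.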

Additional observations from a re-analysis of the deposited data

How the results depend on the processing

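The number of genes called over all genes tested, 759 (484 higher and 275 lower), was 1316 with DESeq2, 222 and 232 with limma-trend on TPM at a pseudocount of 0.1 and 1, 153 on TPM without a filter, and 193 to 458 with 1 library left out. With library size as the only scaling, 346 were higher and 382 lower. The members called higher, 3 in the fit reported, were 1 to 4 with 1 library left out; HSPB7 alone was called without overexpression replicate 1 or 2. Deviations of same-numbered libraries from their group means correlated at 0.0025, 0.0433 and 0.07. Empty vector replicates 2 and 3 correlated best with their own number, and replicate 1 with overexpression replicate 2 (0.0348). Values this small, from 3 libraries per group, cannot decide whether the replicate numbers mark pairs. With the replicate block, 232 genes and 1 member, HSPB7, were called. HSPB8 was also not called in the 3 fits on TPM (adjusted p of 0.0532 to 0.0654 from limma-trend), and ACTC1 was not called in 2 of these 3 nor with the replicate block. Of the 6 lists of partners, regulators and other family genes, the one whose calls differed was chaperone-assisted autophagy, with 1 gene, FLNA, called by DESeq2. For the muscle and luminal marker lists the same alternatives were added after seeing the data. The muscle list had 0 markers called higher on TPM at a pseudocount of 0.1, on TPM without a filter and with the replicate block, and 0 to 1 with 1 library left out. It had 1 called lower, TTN, by DESeq2, and 0 to 1 with 1 library left out. The luminal list, with 1 called higher in the fit reported, had 0 on TPM without a filter and with the replicate block, and 0 to 1 with 1 library left out.

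Over the 17 alternatives, the log2 fold change of CRYAB lay between 0.81 and 1.05, of HSPB7 between 0.33 and 0.45, of HSPB8 between 0.39 and 0.49 and of HSPB1 between 0.18 and 0.27. HSPB6 (-0.19 to 0.31) and HSPB11 (-0.14 to 0.04) took either sign and were called in none. Depth limited HSPB2, HSPB3, HSPB6 and HSPB9, which had at most 29 counts in any library.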

Other observations

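For HSPB6 the counts and the TPM spread differently over the libraries. Empty vector replicates 1 and 2 had 13 and 29 counts but 0.813 and 0.916 TPM, so the deposited TPM of this gene were not a rescaling of the counts.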
